A study of Mus musculus with 16 samples.

Results

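The mesenchyme of the male pelvic urethra was compared with that of the male bladder in mouse embryos at embryonic day 16.5. The comparison took the 8 male libraries of 16 in all, 4 of urethra against 4 of bladder, chosen by sex and tissue alone and paired by litter. The study dissected the lower urinary tract of wild-type, untreated CD-1 embryos, an outbred stock, and sought genes that mark the bladder or the urethral compartment. After 1% trypsin on ice and a brief DNase step, epithelium and mesenchyme were pulled apart with forceps, and the mesenchyme of all males of a litter was pooled within each tissue. Females were pooled separately in the same way and enter here only in the last comparison. RNA (250 ng) was selected for poly(A), made into stranded libraries and read as 100 bp pairs.

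Both tissues come from the urogenital sinus region, and at this age androgen made by the fetal testis acts on the sinus mesenchyme of males. Androgen action there, aided by the enzyme that turns testosterone into dihydrotestosterone, is known to direct the overlying epithelium to form prostatic buds, with FGF, WNT and BMP signals passing between the layers. The bladder wall forms the detrusor, a thick smooth muscle, while the urethra is ringed by the rhabdosphincter, a skeletal muscle, and carries nerve ganglia close by.

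Depth went with tissue. The bladder libraries held 19357942 to 22293812 counts and the urethral ones 26715776 to 27003219. The first principal component of log2 CPM (counts scaled for library depth) held 85.9% of the variance and parted the tissues, with bladder at −88.1 to −48.2 and urethra at 69.0 to 74.4. The bladder library of litter 3 stood apart from the other bladder libraries: it lay nearest to the urethra on that component and at 39.2 on the second, which held 4.55%, where the other bladder libraries lay between −18.8 and 1.36. Values without litter 3 are given for the neuronal and sarcomere lists and for several of the genes in which it was highest. RNA was taken from separated mesenchyme in bulk, so fewer cells of a type and less RNA per cell cannot be told apart.

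Of 17740 genes tested, 6054 were higher in the male urethra (34.1%) and 6047 lower (34.1%), in edgeR's quasi-likelihood test with litter as a block and an adjusted p threshold of 0.05. The share called in either direction was 68.2%, and 11902 of the 12101 calls went the same way in all 4 litters. At least 2-fold differences were fewer, with 2189 genes higher (12.3%) and 1515 lower (8.54%). The 4 libraries of each tissue did not overlap, with urethra above bladder, in 5521 of the tested genes (31.1%), and with urethra below in 5316 (30%). A gene list is therefore read below against a background in which about 68.2% of genes passed the test, and against a median log2 fold change (urethra over bladder) of −0.008 over all genes. With totals in place of the scaled library sizes, 62.5% of the calls were in the higher direction, against 50% here, and the median moved to 0.121.

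Among called genes with a mean of at least 5 CPM in the higher tissue, the largest fold in the urethral direction was that of Trim55, a ring-finger protein of the sarcomere, followed by Mybph, a myosin-binding protein, Srd5a2, Vax1, Mroh4, Sall1, Myod1, Arg1, Lrrc26, Myog, Mylk4 and Calb1. In the other direction stood Pvalb (parvalbumin, a calcium buffer), Plin4 (a lipid droplet coat protein), Ckm (muscle creatine kinase), Pln (phospholamban), Popdc2, Hhatl, Gata4, Acta1, Asz1, Itln1, Tnnt2 and P2rx1. Log2 fold changes of these 12 genes ran from 4.92 (Calb1) to 7.13 (Trim55) upward, and those of the 12 on the other side from −6.77 (Pvalb) to −4.51 (P2rx1). Agreement in 4 of 4 litters was a condition for choosing these 24 genes. None of them overlapped between the tissues, which also held for 31.1% of tested genes with urethra above and 30% with urethra below.

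Enzymes of androgen metabolism differed between the tissues. Srd5a2, the steroid 5-alpha-reductase that makes dihydrotestosterone in the genital tract (chr17:74016955-74047916, minus strand, GRCm38), was measured at 0.0502, 0.635, 0.376 and 0.376 CPM in the bladder libraries of litters 1 to 4, and at 32.3, 21.9, 27.0 and 26.1 CPM in the urethral ones. The lowest urethral library was far above the highest bladder library. The log2 fold change was 6.18 ± 0.34 (SE), with an adjusted p of 2.07e-05. The related enzyme Srd5a1 went the other way, from 91.3 to 103 CPM in bladder to 29.4 to 40.7 CPM in urethra (log2 fold change −1.43 ± 0.11). Per unit of transcript length, in FPKM (fragments per kilobase of exon, scaled for depth as CPM is), mean levels of Srd5a1 and Srd5a2 were 32.7 and 0.224 in bladder and 12.2 and 16.7 in urethra, so the order of the pair was opposite in the 2 tissues.

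Of 21 tested genes of steroid signalling, 12 were higher and 5 lower in the male urethra, with a median log2 fold change of 0.44. The estrogen receptors Esr1 and Esr2 were both higher, with log2 fold changes of 0.86 ± 0.18 and 2.57 ± 0.21. Esr1 stood at 8.39, 13.1, 7.43 and 8.05 CPM in bladder and at 14.8 to 17.7 CPM in urethra, and the bladder library of litter 2 was well above the other three. Pgr, the progesterone receptor, rose by 1.08 ± 0.23, and Greb1, a steroid-induced cofactor, by 2.24 ± 0.20. The 2 enzymes that interconvert active and inactive glucocorticoids moved apart. Hsd11b2, which inactivates the hormone, rose by 2.21 ± 0.14, and Hsd11b1, which regenerates it, had a log2 fold change of −2.77 ± 0.19. Fkbp5, a chaperone induced by androgens and glucocorticoids, rose by 0.65 ± 0.08, from 72.4 to 96.7 CPM in bladder to 112 to 139 CPM in urethra. Tgfb1i1, a receptor cofactor that is also a focal adhesion protein of smooth muscle, was lower by a log2 fold change of −1.73 ± 0.04.

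**Figure D1:**
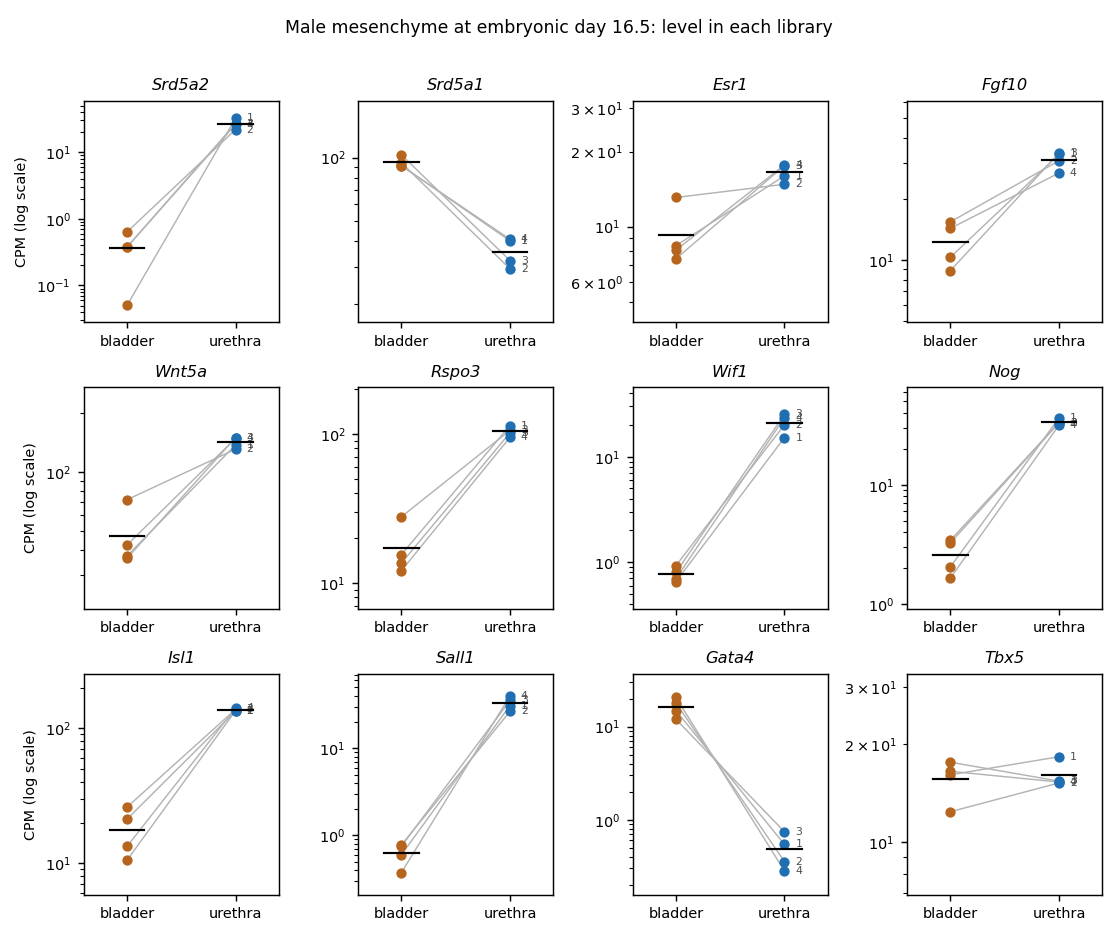
Level of 12 genes in each male library (CPM, log axis), with bladder and urethra of a litter joined by a grey line, black bars for the means of 4 libraries, and the litter number beside each urethral point. The tissues do not overlap in 11 genes, while the values of Tbx5 (12.4 to 17.6 CPM in bladder, 15.2 to 18.3 in urethra) do. Of all tested genes, 31.1% did not overlap with urethra above and 30% with urethra below.

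Signals known from prostatic mesenchyme were mostly higher in the urethra. Of 30 such genes tested, 22 were higher, 2 were lower (Wnt2 and Gli3) and 6 did not pass, and the median log2 fold change was 0.79. The call of Gli3 (−0.15 ± 0.05, overlapping ranges) was lost in 14 alternatives, with an adjusted p of 0.0805 without the litter block. Fgf10, the FGF that drives prostatic bud growth, was at 10.3, 15.4, 8.85 and 14.3 CPM in bladder and at 33.1, 30.8, 33.6 and 26.8 CPM in urethra. No bladder library reached the lowest urethral one, and the log2 fold change was 1.36 ± 0.19 (adjusted p = 0.00138). Fgf7, the other FGF described as a mesenchymal signal to prostatic epithelium, was at 6.82 to 10.2 CPM in bladder and 7.04 to 7.75 CPM in urethra. Its ranges overlapped and it was not called (log2 fold change −0.14 ± 0.12, adjusted p = 0.341). Bmp4, a restraint on budding, was modestly higher, at 65.5 to 77.0 against 93.7 to 109 CPM (0.51 ± 0.05). Its antagonist Nog differed far more, at 2.06, 3.27, 3.44 and 1.66 CPM in bladder against 36.2, 33.0, 33.2 and 31.5 CPM in urethra (3.69 ± 0.18). The activin subunit Inhba and its antagonist Fst rose together, by 1.89 ± 0.18 and 1.75 ± 0.10.

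WNT ligands separated into bladder and urethral sets. Of 15 ligands tested, 9 were higher in urethra and 2 lower, with a median log2 fold change of 1.49. Wnt2 and Wnt2b were the pair lower in urethra. Wnt2 stood at 108, 56.2, 78.4 and 78.3 CPM in bladder and at 18.5, 19.1, 22.1 and 19.9 CPM in urethra (−1.98 ± 0.17), and Wnt2b at 24.0 to 50.8 against 7.35 to 9.16 CPM (−2.18 ± 0.19). Wnt5a, a non-canonical ligand of outgrowing genital mesenchyme, was at 37.3, 72.1, 36.3 and 42.4 CPM in bladder and at 137, 130.3, 149 and 148 CPM in urethra. The bladder library of litter 2 was above the other 3 but below every urethral library, and the log2 fold change was 1.64 ± 0.24 (adjusted p = 0.00454). Wnt6 and Wnt11 rose by 2.17 ± 0.20 and 1.49 ± 0.08. In FPKM the order of the ligands was Wnt2 (35.6) before Wnt4 (20.1) in bladder, and Wnt4 (19.9), Wnt5a (18.1), Wnt5b (15.6) and Wnt6 (15.2) in urethra. Wnt4 itself was not called (log2 fold change −0.02 ± 0.07), and the urethral means of Wnt4 and Wnt5a lay within 1 SD of Wnt4 (3.27 FPKM) of each other.

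R-spondins, which strengthen WNT signals at LGR receptors, parted in the same manner. Rspo3 was at 15.5, 27.8, 13.6 and 12.1 CPM in bladder and at 114, 106, 102 and 95 CPM in urethra, with a log2 fold change of 2.65 ± 0.21 (adjusted p = 0.000389). Rspo2 rose by 2.74 ± 0.34, whereas Rspo1 was lower, at 16.1 to 42.2 CPM in bladder and 4.32 to 5.32 CPM in urethra (−2.53 ± 0.23). Among receptors Lgr5 rose by 2.23 ± 0.15 and Lgr6 had a log2 fold change of −1.87 ± 0.10. Over the 23 receptors and R-spondins tested, 17 were higher and 5 lower (median 0.62). WNT antagonists, secreted or in the membrane, were also higher, 10 of 15 against 4 lower, with a median of 1.30. Wif1, which binds WNT proteins outside the cell, was at 0.653, 0.928, 0.8 and 0.697 CPM in bladder and 15.2, 20.1, 25.2 and 23.5 CPM in urethra (4.75 ± 0.14), and Sfrp2, the most abundant antagonist per length in both tissues, had mean levels of 146 and 321 FPKM. Sostdc1 went the other way (−1.32 ± 0.13). Of 9 target genes of canonical WNT signalling, 6 were higher and 3 lower (median 0.38), and these included Sp5 (2.07 ± 0.18), Lef1 (1.38 ± 0.08) and Axin2 (1.16 ± 0.06) on one side and Nkd1 (−1.0 ± 0.05) on the other.

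BMP and TGF-beta ligands were more mixed, with 13 of 22 higher, 5 lower and a median of 0.46. Gdf10 and Gdf7 led the higher ones, at 16.4 to 35.3 against 168 to 200.2 CPM for Gdf10 (2.70 ± 0.18) and at 0.376 to 2.44 against 22 to 32.5 CPM for Gdf7 (4.14 ± 0.41). Bmp5 and the activin subunit Inhbb were lower, by log2 fold changes of −1.34 ± 0.11 and −1.67 ± 0.23. Antagonists of these ligands were higher in 9 of 13 and lower in 3. Grem1 rose by 3.60 ± 0.36 like Nog, while Chrdl2 was lower (−2.96 ± 0.19). Of 10 BMP target genes 8 were higher and 2 lower (median 0.48). The lower ones were Msx2 and Id2, whose log2 fold changes were small (−0.20 ± 0.06 and −0.18 ± 0.05) and whose calls were lost in 12 and 8 alternatives, whereas Msx1 rose by 3.18 ± 0.13.

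FGF ligands gave 8 higher and 1 lower of 13, against 34.1% of all tested genes in each direction. The lower one was Fgf5, at 2.26 to 6.89 CPM in bladder and 0.282 to 0.688 CPM in urethra (−2.83 ± 0.33). Per length Fgf13, an intracellular member that binds sodium channels and is common in neurons, led in urethra at 13.7 FPKM. The FGF receptors and response genes were higher in 13 of 16 and lower in none, with a median of 0.50. Etv4, a transcription factor induced by FGF signals, was at 1.91, 1.47, 2.68 and 1.88 CPM in bladder and 20.5, 21.9, 25.4 and 21.8 CPM in urethra (3.50 ± 0.12), and its relative Etv5 rose by 0.84 ± 0.05. The receptor Fgfr1 rose by 1.13 ± 0.04. Hedgehog pathway genes differed less, with 7 of 14 higher, 2 lower and a median of 0.23. The share called in either direction was near the 68.2% of all tested genes. Both hedgehog read-outs Gli1 and Ptch1 passed, by 0.34 ± 0.06 and 0.37 ± 0.07; Ptch1 ranges overlapped and its call was lost without the litter block. Notch pathway genes were higher in 16 of 20 and lower in 2 (median 0.86).

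The retinoic acid pathway was higher almost throughout. Of 18 genes tested 17 were higher, none was lower, and the median log2 fold change was 1.24. These made, bound or broke down retinoic acid. Aldh1a2, the main retinoic acid-making enzyme of embryonic mesenchyme, stood at 164, 253, 142 and 225 CPM in bladder and 409, 364, 347 and 336 CPM in urethra (0.93 ± 0.18, adjusted p = 0.0104), and Aldh1a3 at 1.45 to 4.47 against 63.5 to 71.5 CPM (4.31 ± 0.22). The degrading enzymes Cyp26a1 and Cyp26b1 rose by 4.34 ± 0.20 and 1.54 ± 0.13. The binding protein Crabp1 rose from 2.51 to 7.06 CPM in bladder to 63.8 to 79.1 CPM in urethra (3.66 ± 0.29), the vitamin A uptake receptor Stra6 by 3.93 ± 0.37, and the receptor Rarb, itself a retinoic acid target, by 1.34 ± 0.05. In FPKM, Aldh1a2 was first of the list in both tissues, at 86.6 and 161.

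**Figure D2:**
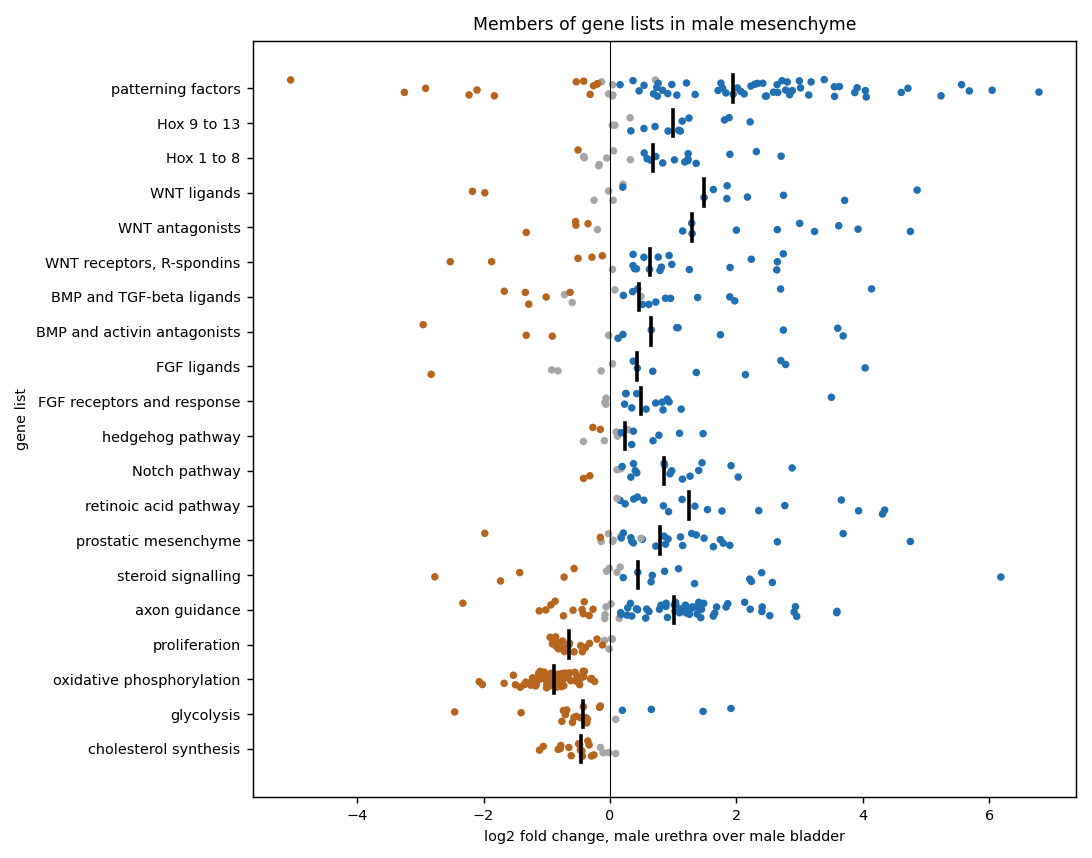
Log2 fold change (male urethra over male bladder) of each tested member of 20 gene lists, with blue for genes called higher, brown for genes called lower, grey for genes not called and a black bar at the median. Medians run from −0.89 (oxidative phosphorylation) to 1.95 (patterning factors). Tbx15, the rightmost patterning factor, rests on 3 counts in bladder.

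Patterning transcription factors of limb, cloaca and genitalia were mostly higher, with 55 of 73 higher, 12 lower and a median of 1.95. Isl1, a factor of genital and hindlimb mesenchyme and of autonomic neurons, was at 10.5, 21.2, 26.0 and 13.3 CPM in bladder and 135, 134, 138 and 141 CPM in urethra (2.99 ± 0.27, adjusted p = 0.000926; 3.22 without litter 3). Sall1, a zinc finger protein required for kidney and anorectal development, was at 0.376 to 0.782 against 26.5 to 39.9 CPM (5.68 ± 0.18), and Vax1, known from forebrain, stood at 0.0471 to 0.244 against 5.47 to 7.60 CPM (6.04 ± 0.34). Osr2 rose by 3.63 ± 0.46, Dlx5 by 4.71 ± 0.23 and Pax9 by 5.24 ± 0.43. Tbx15 had 3 counts over the 4 bladder libraries and 529 over the urethral ones, a ratio of counts per scaled total of 126 with a 95% exact counting interval of 42.8 to 612.

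The lower factors included GATA genes and Pitx1. Gata4 was at 14.9, 18, 12 and 20.6 CPM in bladder and 0.543, 0.355, 0.743 and 0.282 CPM in urethra (−5.05 ± 0.30), and Gata6 at 136 to 168 against 32.6 to 42.4 CPM (−2.10 ± 0.12). Pitx1, a factor of hindlimb mesenchyme, stood at 179 to 206 CPM in bladder and 21.1 to 29.7 CPM in urethra (−2.92 ± 0.07). The related forkhead genes Foxf1 and Foxf2 went opposite ways, by −0.53 ± 0.07 and 1.78 ± 0.10. Tbx5 was not called and its ranges overlapped (0.04 ± 0.10, adjusted p = 0.721).

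Hox genes of the posterior groups 9 to 13 were higher in 11 of 14 and lower in none, with a median of 1.00. Hoxa13, needed for the genital tubercle and cloaca, was at 48.8, 49.2, 52.8 and 54.1 CPM in bladder and 99.6, 86.9, 101 and 100.4 CPM in urethra (0.92 ± 0.05), and Hoxd13 at 60.1 to 83.2 against 136 to 161 CPM (1.11 ± 0.07). Hoxd13 was also first by FPKM in both tissues, with 28.2 and 60.7. Hoxa10 differed least among the called ones, at 73.5 to 88.5 CPM in bladder and 84.6 to 105 CPM in urethra (0.33 ± 0.05), with overlapping ranges. Hoxc10 had the largest change of the group (2.22 ± 0.16). Groups 1 to 8 gave 14 higher and 1 lower of 22, against 34.1% of all tested genes in each direction. Hoxd8, the lower one, had a log2 fold change of −0.51 ± 0.06, and Hoxb3 rose by 2.32 ± 0.08.

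Smooth muscle genes were lower in the male urethra without exception in the list. All 29 genes of the contractile apparatus passed as lower (against 34.1% of all genes), 27 of them at least 2-fold, and the median log2 fold change was −2.16. Acta2, smooth muscle alpha-actin, stood at 3951, 3503, 3828 and 3605 CPM in bladder and 680.3, 646, 708 and 611 CPM in urethra (−2.49 ± 0.04). Myh11, the smooth muscle myosin heavy chain, was at 3369, 3114, 4439.9 and 3000.2 CPM against 319.9, 301, 363 and 280.3 CPM (−3.45 ± 0.05). Myocd, the coactivator that switches the program on, went from 89.5 to 123 CPM to 13.9 to 18.3 CPM (−2.73 ± 0.05). Kcnmb1, the smooth muscle subunit of the calcium-activated potassium channel, had the lowest value of the list (−4.19 ± 0.09). Summed over the list, bladder libraries held 31552 to 36466 CPM and urethral ones 6105 to 6784. By FPKM, Tagln (1806), Acta2 (1695), Actg2 (1459) and Myl9 (1374) led in bladder. In urethra Acta2 (301) and Myl9 (235) led, ahead of Tagln (156). Reads that fit several genes were not counted, so levels of the near-identical actin genes are uncertain.

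The skeletal muscle lists differed in direction. The factors of myoblast determination and fusion were higher in 14 of 16 and lower in none, with a median of 3.73. Myod1 and Myog, transcription factors of skeletal muscle, were at 0.0502 to 0.391 and 0.653 to 1.13 CPM in bladder. In urethra they were at 10.1 to 16.5 and 23.9 to 46.7 CPM (5.55 ± 0.28 and 5.19 ± 0.26). Pax7, the satellite cell factor, had 1 count over the 4 bladder libraries and 203 over the urethral ones, a ratio of 145 with a counting interval of 25.7 to 5751. Genes of the neuromuscular junction and of excitation coupling were higher in 16 of 21 and lower in 4. Among the fetal acetylcholine receptor subunits, Chrng had 1 count in bladder and 326 in urethra (ratio 233, interval 41.5 to 9219), and Chrna1 rose by 5.93 ± 0.36, from 0.00 to 0.107 CPM to 3.15 to 5.0 CPM.

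Sarcomere genes split, with 15 higher and 16 lower of 33. The embryonic myosin Myh3 stood at 4.62, 6.40, 5.79 and 4.56 CPM in bladder and 76.0, 96.6, 51.8 and 53.4 CPM in urethra (3.67 ± 0.14), and the giant sarcomere protein Ttn rose by 4.84 ± 0.32. Trim55 had 3 counts over the bladder libraries and 665 over the urethral ones (ratio 158, interval 53.9 to 769). On the other side, skeletal alpha-actin Acta1 was at 1284, 1087, 1491 and 1151 CPM in bladder and 30, 48.2, 67.4 and 23.3 CPM in urethra (−4.99 ± 0.31), the cardiac actin Actc1 at 885 to 1212 against 74.8 to 126 CPM (−3.40 ± 0.18), Tnnt2 at 673 to 801 against 17.7 to 42.2 CPM (−4.68 ± 0.27) and Ckm at 199.6 to 285 against 1.06 to 7.47 CPM (−6.31 ± 0.51). In FPKM the bladder thus held more of Acta1 (816), Actc1 (663) and Tnnt2 (96.0) than the urethra held of its leading sarcomere gene, Actc1 (63.2), while Myod1 reached 0.148 FPKM in bladder. The urethral library of litter 3 was the highest of the 4 for Acta1, Ckm, Tnnt2, Pln and Popdc2. Without litter 3 the log2 fold changes were −5.17 for Acta1, −6.94 for Ckm, −4.86 for Tnnt2, −6.81 for Pln and −6.02 for Popdc2, and the sarcomere list still gave 15 higher and 16 lower.

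Calcium handling genes leaned to the bladder, with 15 of 22 lower and 2 higher. Pln, the brake on the calcium pump of cardiac, slow and smooth muscle, was at 66.8, 40.1, 48.3 and 52.0 CPM in bladder and 0.471, 0.745, 1.81 and 0.176 CPM in urethra (−6.02 ± 0.50). Pvalb was at 7.84 to 8.71 CPM in bladder and had 0.00, 0.0355, 0.248 and 0.00 CPM in urethra. The receptors on which bladder contraction rests were lower too. P2rx1, the ATP-gated channel of detrusor, stood at 34.6, 33.5, 57.0 and 32.4 CPM against 0.923 to 2.55 CPM (−4.51 ± 0.14; −4.52 without litter 3), and the muscarinic receptors Chrm2 and Chrm3 at 21.4 to 39.3 against 12.9 to 18.8 CPM (−0.97 ± 0.20) and 6.71 to 11.4 against 2.53 to 3.33 CPM (−1.72 ± 0.12). Adra1d and Ednra went the other way. Adra1d, an alpha-1 adrenoceptor, was at 0.215 to 2.34 against 13.1 to 16.9 CPM (3.56 ± 0.40) and the endothelin receptor Ednra was at 16.6 to 28.5 against 122 to 136 CPM (2.52 ± 0.14). Over the 41 receptors 22 were higher and 11 lower. Of 79 potassium channel subunits 43 were higher and 18 lower (median 0.56), with Kcnj8, the pore of a vascular ATP-sensitive channel, first in urethra by level at 18.5 FPKM and Kcnk1 first in bladder at 23.4 FPKM.

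**Figure D3:**
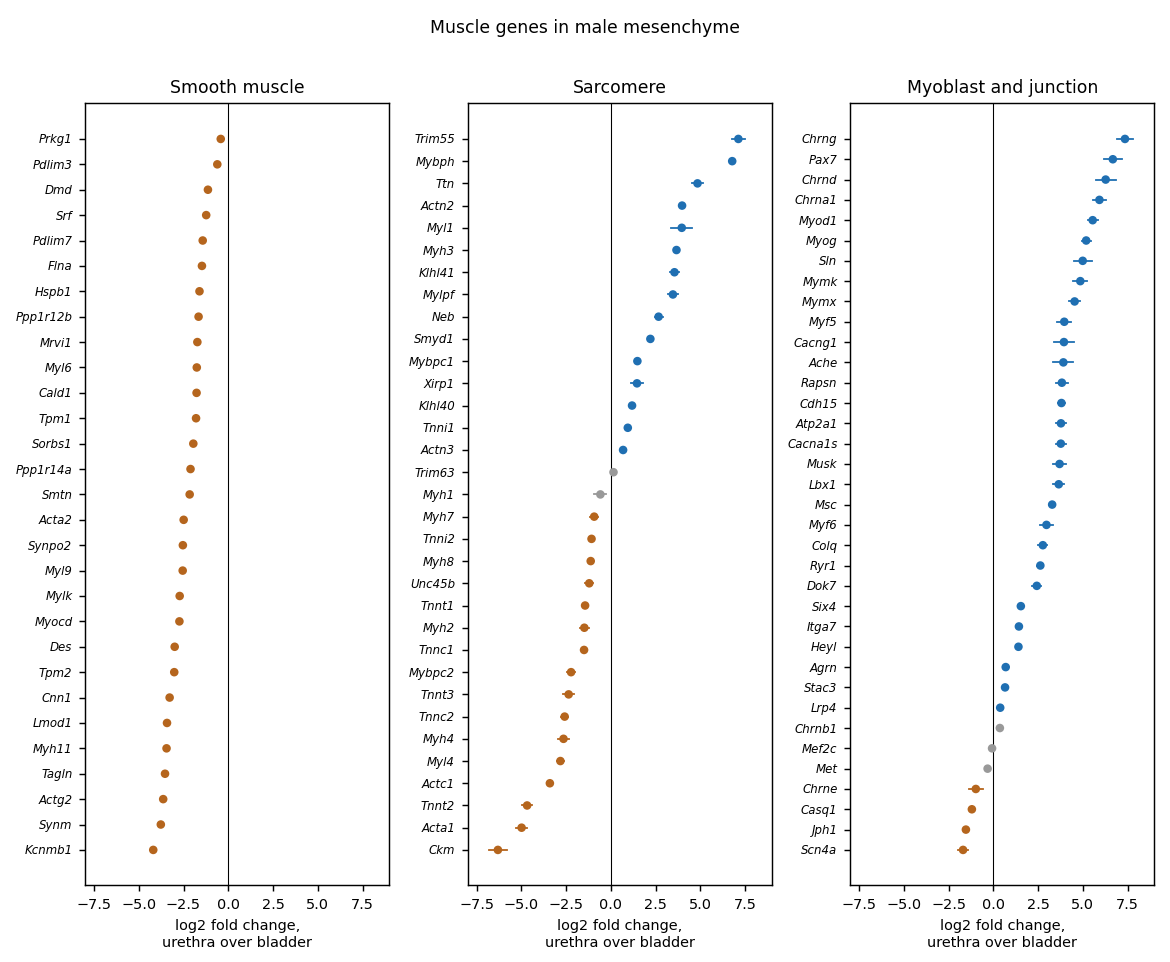
Log2 fold change (male urethra over male bladder) with its standard error for tested genes of 3 muscle panels, blue called higher, brown called lower, grey not called. All 29 smooth muscle genes lie left of 0, sarcomere genes run from −6.31 to 7.13, and most genes of the panel of myoblast and junction genes lie right of 0. Chrng, Pax7, Chrnd and Trim55 have 1 to 3 counts in bladder, so their positions depend on the prior of the fit.

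Promoter windows of muscle genes were read from RefSeq (GRCm38.p6; 250 bases before to 50 after the annotated start) and searched on both strands. The CArG box, the site bound by serum response factor, was in 4 of 30 windows of the smooth muscle genes, or 13.3%, and in 1.63% of all 32851 windows. Those 30 windows belong to the 24 smooth muscle genes for which a window was found. It was in 3 of 30 windows of the sarcomere genes (10%), those of Acta1, Actc1 and Myh4. The E box CANNTG, the site class bound by MYOD1 and its relatives, was in 26 of 30 sarcomere windows (86.7%), in 5 of 10 windows of myoblast genes (50%), in 11 of 15 windows of junction genes (73.3%) and in 72.3% of all windows. The 5 stretches shown here are from called members that had a match, and show where the boxes sit. Capitals mark the box searched, the first pair for the CArG box and the others for the E box.
Myl9: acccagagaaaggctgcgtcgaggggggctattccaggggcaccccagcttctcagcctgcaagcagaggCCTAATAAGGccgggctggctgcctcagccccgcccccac
Myl6: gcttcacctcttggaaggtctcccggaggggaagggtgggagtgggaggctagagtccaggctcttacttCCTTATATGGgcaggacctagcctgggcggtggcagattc
Myog: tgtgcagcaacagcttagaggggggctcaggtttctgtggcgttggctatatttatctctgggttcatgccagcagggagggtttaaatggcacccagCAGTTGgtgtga
Mybph: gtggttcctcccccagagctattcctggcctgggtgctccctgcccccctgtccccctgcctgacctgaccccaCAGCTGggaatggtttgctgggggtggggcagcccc
Chrng: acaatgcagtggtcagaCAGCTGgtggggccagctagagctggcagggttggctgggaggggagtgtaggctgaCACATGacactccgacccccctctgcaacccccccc
These lie at chr2:156775233-156775342 (plus strand) for Myl9, a regulatory light chain lower in urethra (−2.55 ± 0.04), and at chr10:128493020-128493129 (minus strand) for Myl6, an essential light chain (−1.76 ± 0.06). The others lie at chr1:134289894-134290003 (plus) for Myog, chr1:134193295-134193404 (plus) for Mybph and chr1:87205662-87205771 (plus) for Chrng. No binding was measured, and a match describes letters only.

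Neuronal genes were all higher in urethra, and the bladder libraries differed among themselves. All 29 genes of the neuron list passed as higher, with a median log2 fold change of 3.50. Tubb3, a neuronal tubulin, was at 5.07, 31.4, 82.8 and 7.73 CPM in the bladder libraries of litters 1 to 4 and at 328, 391, 414 and 359 CPM in urethra (4.11 ± 0.82, adjusted p = 0.0170). Prph, an intermediate filament of peripheral neurons, was at 6.43, 36.3, 99.9 and 9.01 CPM against 379 to 462 CPM (4.08 ± 0.84). In both genes the bladder library of litter 3 was the highest and that of litter 2 next. Summed over the list, bladder libraries held 289 to 1305 CPM and urethral ones 4136 to 5088. Without litter 3, 28 of 29 passed and the median was 4.24. Without litter 2 it was 11 of 29 with a median of 3.62, and without litters 1 and 4 in turn 28 and 25. Tubb3 and Prph were among the genes that lost their call without litter 2 and without litter 4.

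Several transmitter systems were represented among these genes. Vip, the vasoactive peptide, was at 0.301, 4.44, 8.89 and 0.966 CPM in bladder and 46.6 to 75.5 CPM in urethra (4.25 ± 0.67), and Nos1, the neuronal nitric oxide synthase, rose by 4.04 ± 0.73. Both calls were lost without litter 2 (adjusted p = 0.0554 and 0.0686), and without litter 3 the log2 fold changes were 5.04 and 5.25. The noradrenergic enzyme Th rose by 3.71 ± 0.37 and the cholinergic enzyme Chat by 3.33 ± 0.38. Glial genes were higher in 13 of 14, and Sox10, the factor of glial and neural crest cells, rose by 2.38 ± 0.20. Of 16 neurotrophic factors and receptors 10 were higher and 5 lower. Gdnf, the ligand that supports enteric and autonomic neurons, was at 0.429 to 0.928 against 6.72 to 10 CPM (3.75 ± 0.17) and its receptor Ret at 5.38, 12.3, 50.1 and 6.01 against 172 to 223 CPM (3.80 ± 0.65). The call of Ret was lost without litter 2 (adjusted p = 0.0632), and its log2 fold change was 4.56 without litter 3. Ntf3 was lower (−1.38 ± 0.12). Guidance molecules were higher in 50 of 67 and lower in 12 (median 1.02), from Epha6 (3.59 ± 0.30) to Epha8 (−2.33 ± 0.17). The part of nerve content in the differences of genes that neurons also express, Isl1, Ret and Fgf13 among them, was not tested.

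**Figure D4:**
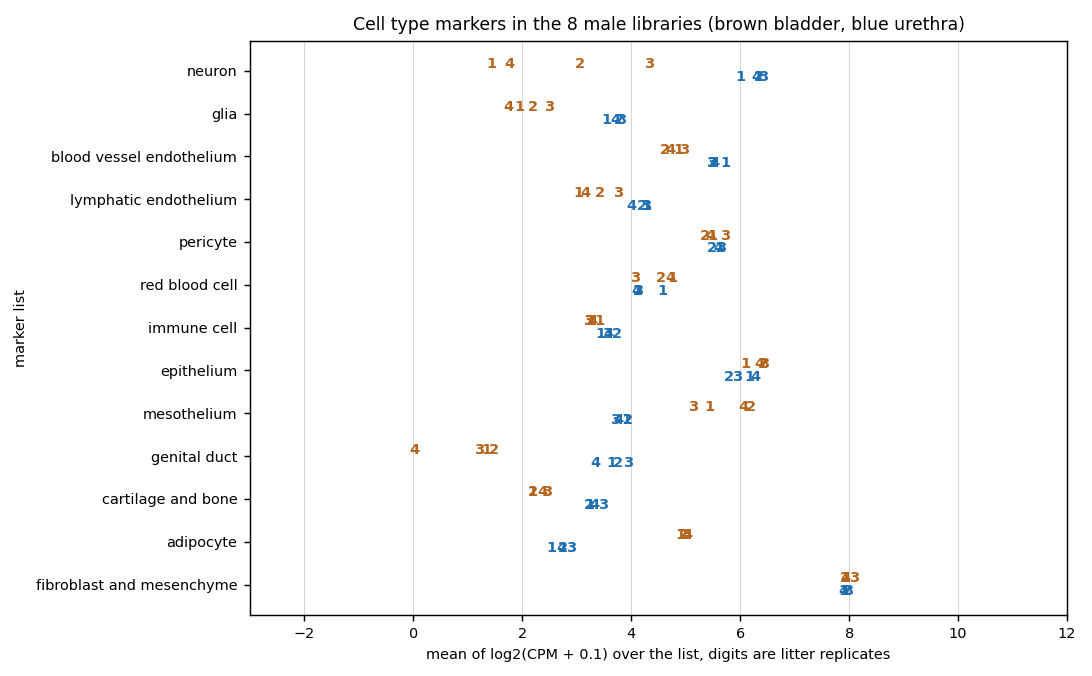
Mean over each marker list of log2(CPM + 0.1) in the 8 male libraries, brown for bladder and blue for urethra, each digit a litter. The neuron row shows bladder of litters 3 and 2 nearer to urethra than those of litters 1 and 4, in the order of their summed levels (289 to 1305 CPM).

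Markers of other cell types were present in both tissues. Epithelial transcripts were found in the RNA of the separated mesenchyme, and their source was not tested. Upk2, a urothelial plaque protein, was at 232, 233, 267 and 251 CPM in bladder and 58.0, 33.9, 40.5 and 55.3 CPM in urethra (−2.42 ± 0.16). Of 30 epithelial genes 10 were higher and 14 lower. The lower ones included the uroplakin Upk3a (−2.95 ± 0.22) and the simple keratin Krt8 (−1.45 ± 0.13), and the higher ones the basal keratins Krt5 (0.46 ± 0.08) and Krt14 (1.77 ± 0.19) higher. Genital duct markers were higher in 10 of 10, with Pax2 at 0.268 to 1.07 against 5.39 to 8.78 CPM (3.26 ± 0.23), and mesothelial markers were lower in 7 of 10 and higher in 1, with Upk3b at 289 to 530.5 against 35.1 to 45.1 CPM (−3.32 ± 0.18). Endothelial genes were higher in 15 of 16 (median 0.81) and adipocyte genes lower in 5 of 6, among them Plin4 at 24.1 to 42.3 against 0.00 to 0.637 CPM (−6.61 ± 0.39). The summed CPM of the lists in bladder and urethra were 5245 to 6548 and 3065 to 4009 for epithelium, 64.9 to 129 and 334 to 396 for the ducts and 579 to 1134 and 262 to 297 for mesothelium. Ret, Wnt7a and Wnt9b are also on the duct list, and Aldh1a1 is on the mesothelial list. The part of these cells in the signalling results was not tested.

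Of 14 fibroblast and mesenchyme genes tested, 5 were higher and 8 lower, with a median log2 fold change of −0.32. Pdgfra, a receptor of embryonic mesenchyme, was at 97.3 to 160.4 CPM in bladder and 514 to 608 CPM in urethra (2.25 ± 0.10). Col1a1 and Col3a1, fibrillar collagens of mesenchyme, were lower in urethra, Col1a1 at 5316 to 6652 against 2280.3 to 2800.3 CPM (−1.16 ± 0.04) and Col3a1 at 5097 to 5449 against 3400.3 to 3793 CPM (−0.54 ± 0.04). They were the first 2 of 43 collagens by FPKM in both tissues. Over all 43 collagens 18 were higher and 12 lower, a share called near the 68.2% of all tested genes. Col2a1, the fibrillar collagen of cartilage, was among the higher ones (3.86 ± 0.15). Elastic fibre genes were higher in 14 of 22 and lower in 1, against 34.1% of all tested genes in each direction. Efemp1 was up by 1.83 ± 0.09 and Mfap5 was at −1.27 ± 0.10. Among matricellular proteins Tnc rose from 27.1 to 53.1 CPM to 172 to 203 CPM (2.22 ± 0.20), and among proteases Mmp9 was lower (−3.58 ± 0.18) and Mmp7 higher (4.30 ± 0.39). IGF pathway genes included Igfbp2 and Igfbp5, both at 301 FPKM in urethra against 60.9 and 173 in bladder, and the growth factors Igf1 (1.02 ± 0.09) and Igf2 (−0.71 ± 0.11), which went opposite ways.

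Growth and energy genes were lower in the male urethra. Of 24 proliferation genes 20 were lower and none higher, with a median of −0.65. With totals in place of the scaled library sizes, 18 were lower and 3 higher, with a median of −0.52. Mki67 was at 254, 293, 332 and 289.5 CPM in bladder and 183, 175, 193 and 190.1 CPM in urethra (−0.65 ± 0.06), and Ccna2 had a log2 fold change of −0.95 ± 0.06. All 73 tested genes of nuclear oxidative phosphorylation were lower, against 34.1% of all genes, with a median of −0.89 that ran from −0.91 to −0.86 when single litters were left out. Ndufb8, a subunit of complex I, was at 411, 381, 249 and 384 CPM in bladder and 82.0, 95, 76.2 and 81.6 CPM in urethra (−2.07 ± 0.10). Glycolysis genes were lower in 16 of 21 and cholesterol synthesis genes in 16 of 20, with Eno3 (−2.46 ± 0.10), the muscle enolase, and Idi1 (−1.12 ± 0.07) at the low end. Transcript length moved with direction over all genes. With the tested genes in 5 equal bins of exonic length, the shortest bin (up to 1906 bases) had a median log2 fold change of −0.34 and 47.5% called lower, and the longest bin (from 7065 bases) a median of 0.14 and 23.4% called lower. Of the 73 oxidative phosphorylation genes 43 lie in the shortest bin, and the part of transcript length in their difference was not tested.

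The tissue difference in males was set against that in females with the interaction of tissue and sex over all 16 libraries, blocked by litter and sex. Of 18254 genes 147 (0.805%) differed, 108 with the male value above the female one and 39 below, and in 30 of them the difference was called in each sex with opposite signs. The number was lower whenever a litter was left out, which also left fewer libraries to the fit. It was 47 without litter 1, 105 without litter 2, 84 without litter 3 and 55 without litter 4. With DESeq2 on all 16 libraries it was 310. Nt5e, an ectonucleotidase that makes adenosine, was at 48.8, 36.7, 55.9 and 42.8 CPM in male bladder and 60.9, 58.9, 55.6 and 59.9 CPM in male urethra, against a mean of 7.94 ± 0.54 CPM (SD, n = 4) in female urethra. Its log2 fold change was 0.35 in males and −2.50 in females in that fit, and the difference of 2.85 ± 0.17 passed (adjusted p = 6.91e-05). Within males alone it was called higher (0.37 ± 0.11, adjusted p = 0.0211) in 3 of 4 litters with overlapping ranges, and the call was lost without litter 1, 2 or 4.

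Srd5a2 did not pass this test. Its male and female log2 fold changes in the same fit were 6.17 and 5.10 (difference 1.07 ± 0.84, adjusted p = 0.713). For Fgf10 they were 1.35 and 0.39 (0.96 ± 0.26, adjusted p = 0.170), for Wif1 4.74 and 3.65 (1.09 ± 0.27, adjusted p = 0.110) and for Esr1 0.84 and 2.06 (−1.21 ± 0.26, adjusted p = 0.0836). None of the 29 neuron genes was called, with medians of 3.48 in males and 4.63 in females. Genes of the lists that did pass included Fkbp5 (male 0.64, female −0.42), Aldh1a1 (1.76 and −0.50), Ramp1 (−1.05 and −2.85), a partner of the receptor for calcitonin gene-related peptide, and Sfrp2 (1.14 and 0.08).

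**Figure D5:**
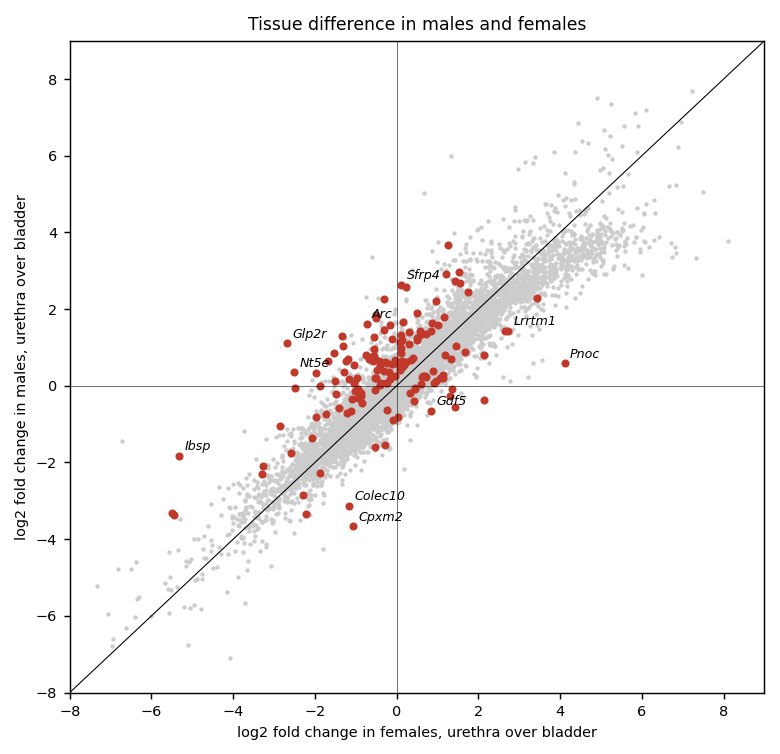
Log2 fold change of urethra over bladder in males (vertical) against females (horizontal) for 18254 genes, with the 147 genes whose difference between the sexes passed in red and a line of equality. Nt5e and Glp2r lie above 0 in males and below 0 in females, and Gdf5 the reverse.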

How the data were processed

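Mesenchymal RNA of male bladder and male urethra was sequenced in 4 litters. Read-pair counts per gene symbol were deposited by the authors. Per the submitters' processing notes the tools were bcl2fastq, HISAT2 2.1.0, SAMtools and Subread 1.6.3 with GRCm38, and per the file headers featureCounts ran with strand setting 2. For the annotation release, the sources used here name none. The normalized table was not used here. Groups came from the labels.

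Genes with too few counts were dropped by edgeR's expression filter, leaving 17740 of 55228. The test was edgeR 4.0.16 quasi-likelihood (R 4.3.3, limma 3.58.1) with TMM scaling, litter as a block and Benjamini-Hochberg adjustment at 0.05. The approximate SE is the size of the log2 fold change over the square root of F. Deviations of same-litter libraries from their tissue means had correlations of 0.282, 0.103, 0.297 and 0.145. Pairs of different litters had −0.204 to 0.029, and centring on only 4 libraries per tissue lowers these. The labels number the libraries by litter. Levels used Python 3.11.15, pandas 2.3.3, numpy 2.4.6 and matplotlib 3.10.9. The script was tested on simulated data in which few genes changed, evenly up and down, with the same spread for every gene. That test does not cover data in which 68.2% of genes were called. DESeq2 1.42.0, limma-voom, other scalings and filters, thinned counts, no block and left-out litters were alternatives.

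Named genes were the 12 with the largest change each way among calls alike in all 4 litters with a mean of 5 CPM or more in the higher tissue, 6 each way by FPKM, 2 per list and direction, 35 chosen singly and 5 each way for the sex difference. Further list members were chosen after their values were seen. The members and the 52 lists were chosen with earlier results of these data known. Of 1268 list symbols 1266 were in the table and 6 matched by synonym. Counting intervals cover counting error only. Some results are not reported here.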

Additional observations from a re-analysis of the deposited data

Results flagged for a closer look

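In 11 of 122 groups of 4 libraries, 1 library lay far from the others. Chance gives about 1 in 20 for independent groups with ample counts. These groups share the same libraries and some rest on very few counts, so no excess over chance is read from the number. The bladder library of litter 2 was highest for Vax1 (0.244 CPM), Esr1 (13.1 CPM), Wnt5a (72.1 CPM) and Hoxa10 (88.5 CPM). The urethral library of the same litter was lowest for Vax1 (5.47 CPM) and Hoxa13 (86.9 CPM). The bladder library of litter 3 was highest for P2rx1 (57.0 CPM), and the urethral one for Pvalb (0.248 CPM) and Asz1 (0.885 CPM). The urethral library of litter 1 was highest for Tbx5 (18.3 CPM). For Chrng the bladder library of litter 4 held the only count (0.0536 CPM).

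The tissue difference differed between the sexes by the interaction test of edgeR. The male log2 fold change was above the female one by 3.79 for Glp2r, a gut hormone receptor, by 3.49 for Ibsp, a bone matrix protein, by 2.85 for Nt5e, by 2.52 for the WNT antagonist Sfrp4 and by 2.35 for Arc, an activity-regulated neuronal gene. The male minus female difference was −3.51 for Pnoc, an opioid-like peptide precursor, −2.58 for Cpxm2, −1.96 for Colec10, −1.48 for the BMP ligand Gdf5 and −1.30 for Lrrtm1. Glp2r was at 3.35 ± 0.94 CPM (SD, n = 4) in male bladder and 7.2 ± 0.86 in male urethra, against 3.39 ± 0.95 and 0.524 ± 0.117 in females. Ibsp was lower in urethra in both sexes (−1.83 in males, −5.32 in females), and its difference passed narrowly (SE 0.63, adjusted p = 0.0459). Cpxm2 and Colec10 were also lower in both sexes, and Lrrtm1 was higher in both. Pnoc was at 5.02 CPM in male and 0.15 in female bladder, and at 7.3 and 2.66 in urethra. For Sfrp4 these means were 1.3 and 5.1 CPM in bladder and 7.99 and 5.29 in urethra.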

How the results depend on the processing

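Of 5536 recomputed log2 fold changes of 252 genes, 5422 kept direction and side of the threshold, 103 lost their call and 11 changed sign. The sign changes were in 2 genes that were not called. Tbx5 ran from −0.04 to 0.12 over single litters left out (−0.0018 without litter 1), and with no block from −0.06 without the bladder library of litter 2 and −0.03 without the urethral one of litter 1 to 0.1. Wnt4 was 0.11 with totals alone and 0.01 with no filter, ran from −0.09 to 0.04 over single litters left out (0.03 without litter 2), and with no block from −0.12 to 0.05 over single libraries left out. With no replicate block 5884 genes were higher and 5809 lower. Calls of Gli3, Msx2, Id2, Ptch1 and Wnt5b, all of small size, were lost in 8 to 14 alternatives each. At least 2-fold differences numbered 2189 and 1515. The sex difference gave 310 genes with DESeq2, and 47 to 105 without single litters. Bladder depth was lower in every litter, and counts thinned to the smallest library gave 5823 higher and 5824 lower. Of 2288 recomputed list counts, 112 moved by over 1.5 times.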
